A study of Mus musculus with 14 samples.

Results

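The 10 genes described here encode the Notch receptors *Notch1*, *Notch2* and *Notch3*, the ligands *Dll1*, *Dll3*, *Jag1* and *Jag2*, and the fringe glycosyltransferases *Lfng*, *Mfng* and *Rfng*. They were taken by symbol from the 31054 genes counted in each of the 14 single-cell libraries, and all 10 had UMIs (unique molecular identifiers, 1 per captured transcript) in every library. A Notch receptor is cleaved when a ligand on a neighboring cell binds it, and its released intracellular part joins the DNA-binding protein RBPJ to switch on *Hes* and *Hey* genes, which hold back proneural factors. Proneural bHLH factors such as ATOH1 in turn raise *Dll1* in the cell that is about to differentiate, so receptor and ligand tend to mark progenitors and newly committed neurons. Fringe enzymes add a sugar to the receptor and thereby change which ligands it answers to, and *Dll3* is a divergent ligand that acts mainly within its own cell.

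Control animals were *Atoh1* Cre/+; Rosa lsl-tdTomato/+ and *Atoh1* S193A/- animals were *Atoh1* Cre/S193A; Rosa lsl-tdTomato/+, all on C57BL/6J. Cre replaces the coding region of 1 *Atoh1* copy, so controls also carried a null copy. The tdTomato sort selects for cells in which the *Atoh1* locus had driven Cre. Its purity was not tested, and classes such as microglia-like cells (935 at P5) were among the sorted cells. TdTom+ live cells were sorted from the hindbrains of 3 control and 3 *Atoh1* S193A/- embryos at E14.5 and again at E18.5, with 1 library per embryo and a littermate control for each *Atoh1* S193A/- embryo, and from the dissected pontine nuclei (PN) of pooled control pups at P5 for 2 libraries. Per the study, E14.5 replicate 1 held a female control and a male *Atoh1* S193A/- embryo, while the other embryonic replicates matched in sex. The part of sex was not tested. Across the libraries, total UMIs ranged from 108239001 to 236964126, and 80243 of 150188 barcodes were kept. The 5% limit on mitochondrial UMIs lay close to the library medians over all barcodes, 3.25 to 5.09%. In E14.5 control libraries 1, 2 and 3, 3511 of 7972, 6867 of 10407 and 7100 of 12869 barcodes passed the gene and mitochondrial limits. In *Atoh1* S193A/- libraries 1, 2 and 3 these were 5160 of 9672, 7474 of 9000 and 7104 of 10812, a larger share in each pair. S193A is a point change, so *Atoh1* counts do not check the labels, and *Atoh1* ranged from 55.0 to 137 CPM (counts per 1000000 UMIs) in the E14.5 control libraries and from 86.2 to 144 CPM in their *Atoh1* S193A/- littermates. Cell Ranger was version 3.1.0 for E14.5 control libraries 1 and 2 but 5.0.1 for the remaining 12, so only pair 3 compares E14.5 genotypes within 1 version, and its ratio is given beside the members called at E14.5. Pairs of libraries shared between 13 and 67 cell barcodes, at most 0.624% of the smaller library.

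Cells were clustered within each stage without the Notch pathway genes and named from marker genes. At E14.5 the PN-like cells were split into progenitor-like (1461 cells), intermediate progenitor-like (824), migrating neuron-1-like (978), migrating neuron-2-like (1969) and differentiated neuron-like cells (2167). Granule progenitor-like cells of the rostral rhombic lip numbered 2195 at E14.5 and 10880 at E18.5. Levels are the CPM of UMIs summed over the cells of a class in a library, and the libraries, not the cells, are the replicates. Counts from the 3′ end of transcripts do not rank genes against each other, so each level is compared across classes within a gene. In sums over mixed cells, fewer cells of a type and less RNA per cell cannot be told apart.

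Because the data concern ATOH1, promoter stretches that hold the E-box CAGCTG, a sequence bound by ATOH1 and other bHLH factors, are shown for the ligand *Dll1*, which was called with the littermate block in 4 of the 12 genotype comparisons below, and for the fringe *Lfng*. Of the members, 9 matched the RefSeq promoter table (GRCm38.p6), with 10 start sites, and *Mfng* did not. CAGCTG, which reads the same on both strands, lay within the 250 bases before the start at 4 of these 10 start sites (*Dll1*, *Dll3*, *Jag1* and *Lfng*), against 13.0% of 32851 such windows of the genome. *Dll1* had another start site, whose window held 0. The *Dll3* window lay wholly in exons, and the *Jag1* match fell in the 124 bases of its window that lie in exons. The *Dll1* stretch is chr17:15376933-15377182 on the minus strand, with the E-box beginning 132 bases before the RefSeq start, and the *Lfng* stretch is chr5:140607091-140607319 on the plus strand. Both are written 5′ to 3′ with the E-box in capitals, and a match of letters is a description, not a bound site.
Dll1: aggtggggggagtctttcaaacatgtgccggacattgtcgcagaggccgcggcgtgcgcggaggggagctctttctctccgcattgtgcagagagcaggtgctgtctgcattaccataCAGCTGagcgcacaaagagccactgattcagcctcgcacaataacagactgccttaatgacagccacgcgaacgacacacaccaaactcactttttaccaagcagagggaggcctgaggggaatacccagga
Lfng: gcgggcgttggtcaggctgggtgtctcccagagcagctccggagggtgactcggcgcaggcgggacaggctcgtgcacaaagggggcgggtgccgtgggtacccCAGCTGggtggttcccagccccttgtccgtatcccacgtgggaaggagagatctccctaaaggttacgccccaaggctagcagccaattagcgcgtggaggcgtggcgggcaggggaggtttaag

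To ask where along PN development each gene was used, levels were compared across the 5 E14.5 states in control libraries. The genes formed a sequence. The 3 receptors, *Jag1* and *Lfng* had their highest mean in progenitor-like cells, *Dll1* and *Mfng* in intermediate progenitor-like cells, *Dll3* in migrating neuron-1-like cells, and *Jag2* and *Rfng* in differentiated neuron-like cells. No test was made of these levels. For 8 of the genes the libraries of the highest state lay above those of every other state, while *Jag1* overlapped with the intermediate progenitor-like and *Mfng* with the migrating neuron-1-like state.

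*Notch1* (ENSMUSG00000026923, GRCm38 chromosome 2, 26457903 to 26516663, minus strand) was at 113, 92.0 and 127 CPM in the progenitor-like cells of control libraries 1, 2 and 3. The intermediate progenitor-like mean was 56.9 ± 3.65 CPM (SD, n = 3), and the migrating neuron-1-like, migrating neuron-2-like and differentiated neuron-like means were 13.3 ± 3.74, 2.37 ± 0.977 and 0.887 ± 0.584 CPM. Each step down was free of overlap between libraries except the last, from migrating neuron-2-like to differentiated neuron-like cells. *Notch2* (chromosome 3, 98013527 to 98150361) was highest in progenitor-like cells, with 18.6 ± 2.87 CPM there against 1.82 ± 1.65 CPM in the next state. *Notch3* (chromosome 17, 32120820 to 32166852) followed with 11.0 ± 1.63 and 3.24 ± 0.571 CPM, and in the 3 later states both genes stayed at or under 2.47 CPM in every control library.

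Among the ligands, *Dll1* (ENSMUSG00000014773, chromosome 17, 15367354 to 15376872, minus strand) had its control maximum in intermediate progenitor-like cells, at 74.3, 70.0 and 48.4 CPM in libraries 1, 2 and 3. The lowest of these lay above the highest progenitor-like value of 39.3 CPM. *Dll1* was then at 9.05 ± 3.25 CPM in migrating neuron-1-like and 4.25 ± 0.658 CPM in migrating neuron-2-like cells, and its differentiated neuron-like mean was 10.7 ± 3.50 CPM. *Dll3* (chromosome 7, 28293553 to 28302238) came later and more steeply, with means of 5.03 ± 5.60, 135 ± 30.5 and 205 ± 11.6 CPM in the progenitor-like, intermediate progenitor-like and migrating neuron-1-like states. Its means in the next 2 states were 95.7 ± 19.5 and 25.3 ± 1.14 CPM. *Jag1* (chromosome 2, 137081456 to 137116644) averaged 24.2 ± 3.22 and 15.0 ± 6.16 CPM in the progenitor-like and intermediate progenitor-like states, whose libraries overlapped. *Jag2* (chromosome 12, 112907819 to 112929776) stayed at or below 4.03 CPM in every control library of the first 4 states and averaged 7.48 ± 2.69 CPM in differentiated neuron-like cells.

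The fringes divided the same path among them. *Lfng* (chromosome 5, 140607320 to 140615545) averaged 21.7 ± 3.97 CPM in the first state and 5.81 ± 1.04 CPM in the second. *Mfng* (chromosome 15, 78755882 to 78773475) averaged 52.8 ± 17.0, 216 ± 45.1 and 175 ± 33.9 CPM in the first 3 states, the latter 2 overlapping, and 57.9 ± 14.2 and 2.27 ± 1.29 CPM in the last 2. *Rfng* (chromosome 11, 120780746 to 120784207) was present in all 5 states and highest in differentiated neuron-like cells, with 33.1 ± 4.44 CPM against a low of 10.1 ± 2.44 CPM in the intermediate state. *Lfng* and *Rfng* thus sat at opposite ends of the path, with *Mfng* between them.

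**Figure D1:**
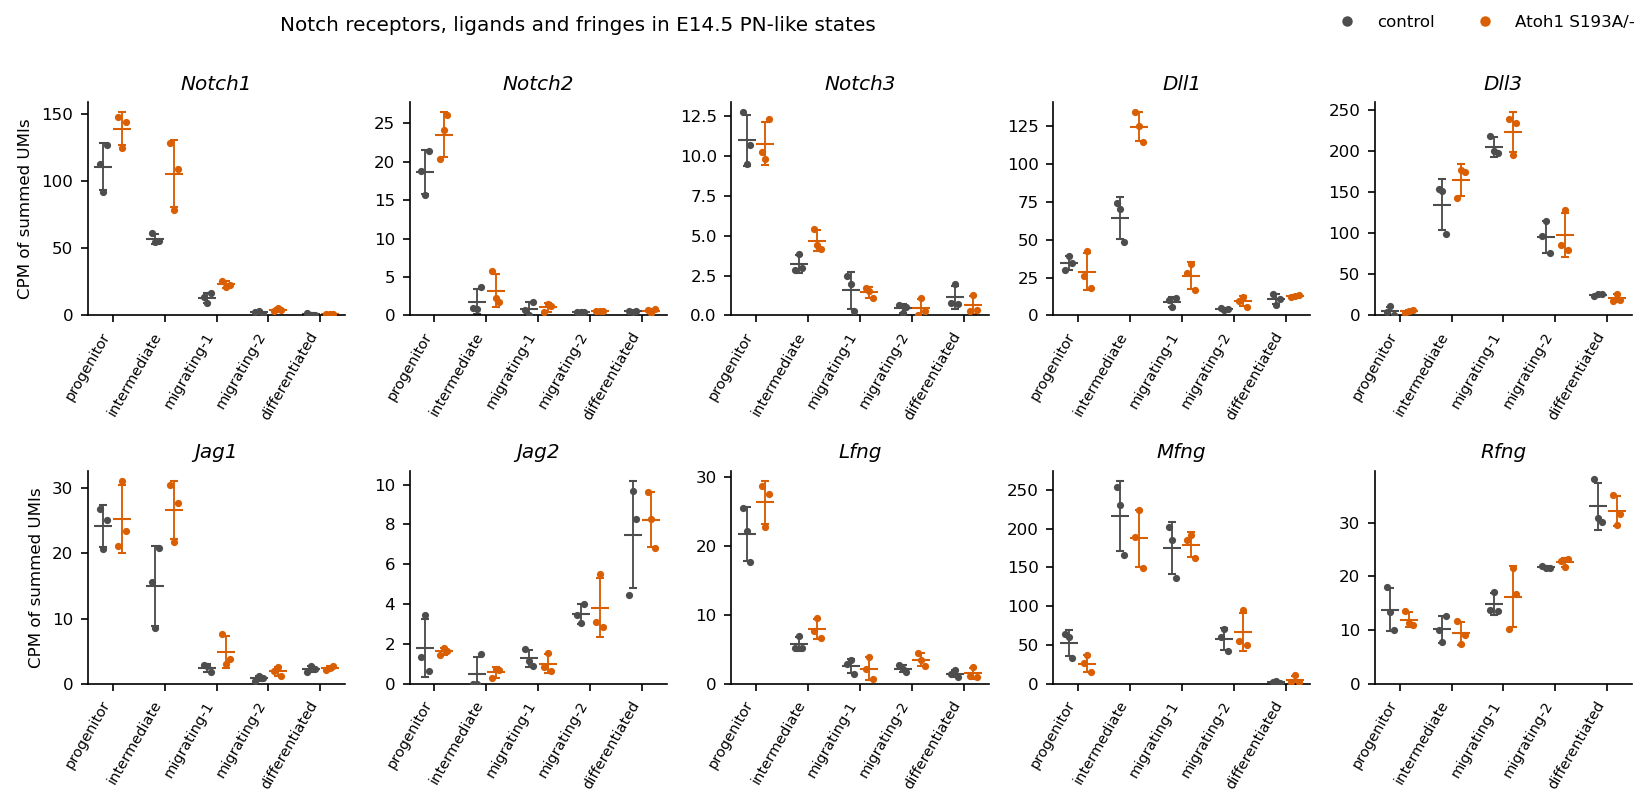
CPM of summed UMIs (linear axis from 0) of the 10 members in the 5 PN-like states at E14.5, with 1 point per library and bars for the mean and SD of 3 libraries per genotype. Control *Notch1* goes from 111 to 0.887 CPM along the states while *Dll3* peaks at 205 CPM in migrating neuron-1-like cells, and *Dll1* in intermediate progenitor-like cells lies at 48.4 to 74.3 CPM in control and 115 to 134 CPM in *Atoh1* S193A/- libraries.

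Over the 33 E14.5 clusters with at least 1 library sum, genes were ranked by Pearson correlation of log2(mean CPM + 1) with each member, among 11286 genes, as a description. The mean was taken over the libraries of both genotypes. The profile of *Lfng* was most like those of *Id1* (r = 0.951) and *Id3* (r = 0.936), which encode inhibitors of bHLH factors and are also on the marker list that named PN progenitor-like cells. *Mfng* was most like *Vps37b* and *Phc2* (0.902 and 0.901), followed by *Rbpj* (0.886), which encodes the DNA-binding partner of the cleaved receptor. *Notch2* and *Notch3* shared *Trip6* as the nearest gene (0.965 and 0.959), *Notch1* was most like *Kdelc1* (0.958) and *Rfng* most like *Nlgn2* (0.968). *Dll1*, *Dll3* and *Jag1* had looser neighbors, with *Drg2*, *Sars* and *Nexn* at 0.812, 0.810 and 0.821. *Jag2* was most like *Pfkp* (0.963), and *Jag2* was highest in a cluster with a median of 2027.5 UMIs per cell, where it averaged 103 ± 36.9 CPM over 4 libraries.

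Whether the hypomorphic allele changed the members was tested by edgeR (quasi-likelihood, TMM) in 12 sums of cells (6 classes and all sorted cells at E14.5, 4 classes and all sorted cells at E18.5). The fits took in every gene detected in 10% or more of either genotype's cells, and calls needed both an FDR below 0.05 and a log2 change beyond 0.25 in size. Between 3 and 8 of the 10 members passed the detection limit in a comparison, 65 tests in all. Without pairing, 0 of the 65 were called. An unadjusted edgeR p under 0.05 was found in 18, 15 of them toward higher levels in *Atoh1* S193A/-. The share of all genes under that p was not taken, so counts by unadjusted p, here and below, have no background. Some members passed the detection limit in *Atoh1* S193A/- alone, which favors tests toward higher levels. They were *Notch2* and *Jag1* over all sorted E14.5 cells, *Dll1* in migrating neuron-2-like and *Lfng* in intermediate progenitor-like cells. DESeq2 called 7 of the same 65. With the littermate pair (libraries of the same replicate number) as a block, an alternative to the unpaired test, 14 were called. Both of these counts include *Notch2* over all sorted E14.5 cells, and that of the block *Jag1* there. The unpaired calls over all genes were nearly as sparse, so each count of members below is read against the share of all genes called in that comparison and test, save where stated.

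In intermediate progenitor-like cells, the ligand *Dll1* averaged 124 ± 9.65 CPM in *Atoh1* S193A/- and 64.2 ± 13.9 CPM in control libraries, and the receptor *Notch1* 105 ± 25.0 and 56.9 ± 3.65 CPM. *Dll1* was at 134, 125 and 115 CPM in *Atoh1* S193A/- libraries 1, 2 and 3, against 74.3, 70.0 and 48.4 CPM in control. *Notch1* was at 128, 78.8 and 109 CPM against 61.1, 54.5 and 55.1 CPM. For both genes every *Atoh1* S193A/- library lay above every control library. With the littermate block, *Dll1* rose by 0.95 on the log2 scale (SE 0.11, FDR 0.000582 in edgeR) and *Notch1* by 0.89 (SE 0.12, FDR 0.00344), 2 of 7 members tested, where 1.09% of all genes were called and 0.623% were called higher. DESeq2, without the block, also called both (FDR 0.00176 and 0.0446), with 0.219% of all genes. Without the block the log2 changes were 0.94 (SE 0.15, FDR 0.158) and 0.88 (SE 0.19, FDR 0.352), and 0.0109% of all genes were called. With a mitochondrial limit of 3% in place of 5% the *Notch1* change without the block was 0.56 (FDR 0.997). The log2 ratios of the pairs were 0.85, 0.83 and 1.24 for *Dll1* and 1.07, 0.53 and 0.98 for *Notch1*, the last of each being the pair of 1 Cell Ranger version. Of the 6 unblocked fits that left out 1 library, that without *Atoh1* S193A/- library 2, the library lowest in *Notch1*, called both (log2 change 0.96 and FDR 0.0294 for *Dll1*, 1.08 and 0.00584 for *Notch1*) with 0.45% of all genes, and the other 5 called 0 members with at most 0.0326% of genes.

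The share of intermediate progenitor-like cells with a *Dll1* UMI, after each cell was thinned to 5000 UMIs, was 24.6% (19.4 to 29.8% over libraries) in control and 42.8% (41.3 to 44.0%) in *Atoh1* S193A/-, and without thinning it was 49.3 and 77.1%. In postmitotic granule lineage-like cells, whose *Dll1* was at 1.01 CPM in control, the thinned shares were 0.339 and 0.267% in control and *Atoh1* S193A/- (1.43 and 5.27% without thinning), at median depths between 16793 and 21419.5 UMIs against 13874 to 19098 UMIs in intermediate progenitor-like cells. These postmitotic cells numbered 122 to 451 per control and 48 to 253 per *Atoh1* S193A/- library at E14.5, so their *Dll1* shares rest on few cells. Their share without thinning was higher in *Atoh1* S193A/-. Thinning left out 4 of the 824 intermediate progenitor-like cells. After thinning, a *Notch1* UMI was found in 27.8 to 33.3% of the cells with a *Dll1* UMI and in 18.2 to 23.9% of the others over control libraries, and in 38.6 to 44.9% and 25.9 to 39.6% over *Atoh1* S193A/- libraries, where the ranges overlapped. In postmitotic granule lineage-like cells the thinned *Notch1* share was 0.869% in control and 0.298% in *Atoh1* S193A/- (2.49 and 3.63% without thinning).

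*Jag1* in the same cells was at 15.6, 8.56 and 20.8 CPM in control and at 30.5, 21.7 and 27.7 CPM in *Atoh1* S193A/- libraries, without overlap. Its log2 change of 0.85 with the block (SE 0.21, FDR 0.0928) was not called. *Mfng* and *Dll3* overlapped between genotypes, with means of 216 and 187 CPM for *Mfng* and of 135 and 164 CPM for *Dll3* in control and *Atoh1* S193A/-. With the block their log2 changes were -0.23 (FDR 0.377) and 0.26 (FDR 0.544). *Rfng* (-0.07, FDR 0.972) and *Lfng* (0.45, FDR 0.719), which passed the detection limit in *Atoh1* S193A/- alone, were not called either. Beside these results, the cycling markers summed to 173 to 214 CPM in control and 232 to 358 CPM in *Atoh1* S193A/- intermediate progenitor-like cells, and the 7 migrating neuron-1 markers to 2687 to 3126 and 2288 to 2485 CPM. All 6 cycling and all 7 migrating markers had UMIs in every library, and the part of these shifts in the member changes was not tested.

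In progenitor-like cells the member called with the block was *Mfng*. It was at 64.4, 60.7 and 33.3 CPM in control and at 26.5, 36.5 and 15.5 CPM in *Atoh1* S193A/- libraries. The groups overlapped, because control library 3 lay below *Atoh1* S193A/- library 2, but the *Atoh1* S193A/- embryo was lower in every pair, with log2 ratios of -1.28, -0.73 and -1.10. With the block *Mfng* fell by 1.05 on the log2 scale (SE 0.14, FDR 0.00131), as 1 of 8 members tested, where 0.851% of all genes were called (0.445% lower), and without it the change was -1.07 (SE 0.30, FDR 1.00, with 0.0099% of genes called by edgeR). DESeq2 did not call it (FDR 0.0975, with 0.0792% of genes called). Among Cell Ranger 5.0.1 libraries alone, which leave 1 E14.5 control library, the log2 change without the block was -0.47. *Notch1* was at 111 ± 17.6 CPM in control and 139 ± 12.2 CPM in *Atoh1* S193A/- progenitor-like cells, and *Dll1* at 34.7 ± 4.56 and 29.0 ± 12.4 CPM, neither of them called (log2 change 0.29 with the block, FDR 0.191, and -0.33, FDR 0.581). The other 5 members tested there were not called with the block either, *Notch2* at 0.32, *Notch3* at -0.06, *Jag1* at 0.05, *Lfng* at 0.22 and *Rfng* at -0.24 on the log2 scale, each with an FDR of 0.586 or more. The migrating neuron-1 markers again summed lower in *Atoh1* S193A/-, at 236 to 262 CPM against 367 to 523 CPM, and the median doublet score of these cells lay at the 52.8 to 59.9 percentile of its library in *Atoh1* S193A/- and the 68.2 to 75.0 percentile in control, without overlap. The part of either in the *Mfng* change was not tested. These cells numbered between 72 and 116 in control libraries and between 315 and 517 in *Atoh1* S193A/- libraries, so control values rest on fewer UMIs, between 53 and 159 for *Mfng*.

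A direct test of whether the genotype change differed between the intermediate progenitor-like and progenitor-like states, with the library as a block, called 0 of 9 members by edgeR and 4 had an unadjusted p under 0.05, with 0.0192% of all genes called. The largest differences were 1.30 for *Dll1* (SE 0.28, FDR 0.197) and 0.87 for *Mfng* (SE 0.17, FDR 0.143) on the log2 scale, both toward the intermediate state. DESeq2 called these 2 (FDR 0.0344 and 0.0482, with 0.135% of all genes), and without *Atoh1* S193A/- library 2 edgeR called 4 members, *Notch1*, *Jag1*, *Mfng* and *Dll1*, with 0.935% of all genes, while leaving out each of the other 5 libraries gave 0 members and at most 0.00963% of genes. *Notch1* (0.57), *Jag1* (0.85), *Notch2* (0.70), *Notch3* (0.63), *Dll3* (0.47), *Lfng* (0.23) and *Rfng* (0.17) had FDR values of 0.457 or more with all libraries.

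In migrating neuron-1-like cells, *Dll1* was at 9.88, 5.47 and 11.8 CPM in control and at 28.3, 34.0 and 16.7 CPM in *Atoh1* S193A/- libraries, without overlap. It rose with the block (log2 change 1.34, SE 0.28, FDR 0.0225), as 1 of 5 members tested against 1.42% of all genes (0.652% higher), and not without it (1.38, FDR 0.291, 0.0427% of genes). DESeq2 called it (FDR 0.0131, 0.289% of genes). The ratio was smallest in pair 3, at 0.50 against 1.52 and 2.64. *Notch1* there was at 13.3 ± 3.74 and 23.1 ± 2.46 CPM, also without overlap, and did not pass (log2 change 0.70 with the block, FDR 0.103), nor did *Dll3* (0.09), *Rfng* (0.07) and *Mfng* (0.02), with FDR values of 0.752 or more. In the 2 later states no member was called by edgeR with or without the block or by DESeq2, and 1 of the 8 tests had an unadjusted p under 0.05 in edgeR. *Dll1* in migrating neuron-2-like cells, at 4.25 ± 0.658 CPM in control and 9.21 ± 3.30 CPM in *Atoh1* S193A/-, did not overlap, passed the detection limit in *Atoh1* S193A/- alone and failed the correction (log2 change 1.06 with the block, FDR 0.314, with 0.0946% of all genes called, 0.0% without the block and 0.042% by DESeq2), and in differentiated neuron-like cells it was at 10.7 ± 3.50 and 12.7 ± 0.676 CPM, with 0.0203% of all genes called with the block and 0.0% by the other tests. The remaining members tested were *Dll3* (-0.01), *Rfng* (0.02) and *Mfng* (0.17) in migrating neuron-2-like cells, with FDR values of 0.595 or more with the block, and *Dll3* (-0.35, FDR 0.365), *Rfng* (-0.07, FDR 0.759) and *Jag2* (0.06, FDR 0.952) in differentiated neuron-like cells, where the log2 change of *Dll1* was 0.21 (FDR 0.666).

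The difference in *Dll1* was not limited to the PN lineage. In E14.5 granule progenitor-like cells, *Dll1* was at 31.1, 25.8 and 19.2 CPM in control and at 50.1, 63.2 and 43.9 CPM in *Atoh1* S193A/- libraries, and *Notch1* at 34.4, 25.7 and 32.6 CPM against 49.9, 46.2 and 44.7 CPM. Neither gene overlapped between genotypes. With the block, *Dll1* rose by 1.03 (SE 0.11, FDR 0.00831) and *Notch1* by 0.56 (SE 0.09, FDR 0.0341) on the log2 scale, 2 of 7 members tested where 1.01% of all genes were called (0.528% higher). Without the block the changes were 1.03 (FDR 0.465) and 0.58 (FDR 0.765), and 0.0% of genes were called, while DESeq2 called *Dll1* (FDR 0.00109) with 0.176% of genes. The pair ratios were 0.69, 1.29 and 1.20 for *Dll1* and 0.54, 0.85 and 0.45 for *Notch1*. *Notch2* (0.08), *Jag1* (0.18), *Dll3* (0.01), *Rfng* (-0.14) and *Mfng* (-0.20) were not called with the block, with FDR values of 0.489 or more. The 7 migrating neuron-1 markers summed to 806 to 871 CPM in control and 445 to 665 CPM in *Atoh1* S193A/- granule progenitor-like cells, which was not tested as a cause. A further cluster led by *Pvalb*, *Fst* and *Tlx3* met the marker limits of these cells but was kept out for its leading genes, and held 3.66% ± 1.89 of control and 3.38% ± 1.49 of *Atoh1* S193A/- cells (SD, n = 3). There *Dll1* was at 13.97 ± 7.33 and 38.6 ± 5.05 CPM and *Notch1* at 13.2 ± 0.759 and 23.4 ± 2.91 CPM.

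**Figure D2:**
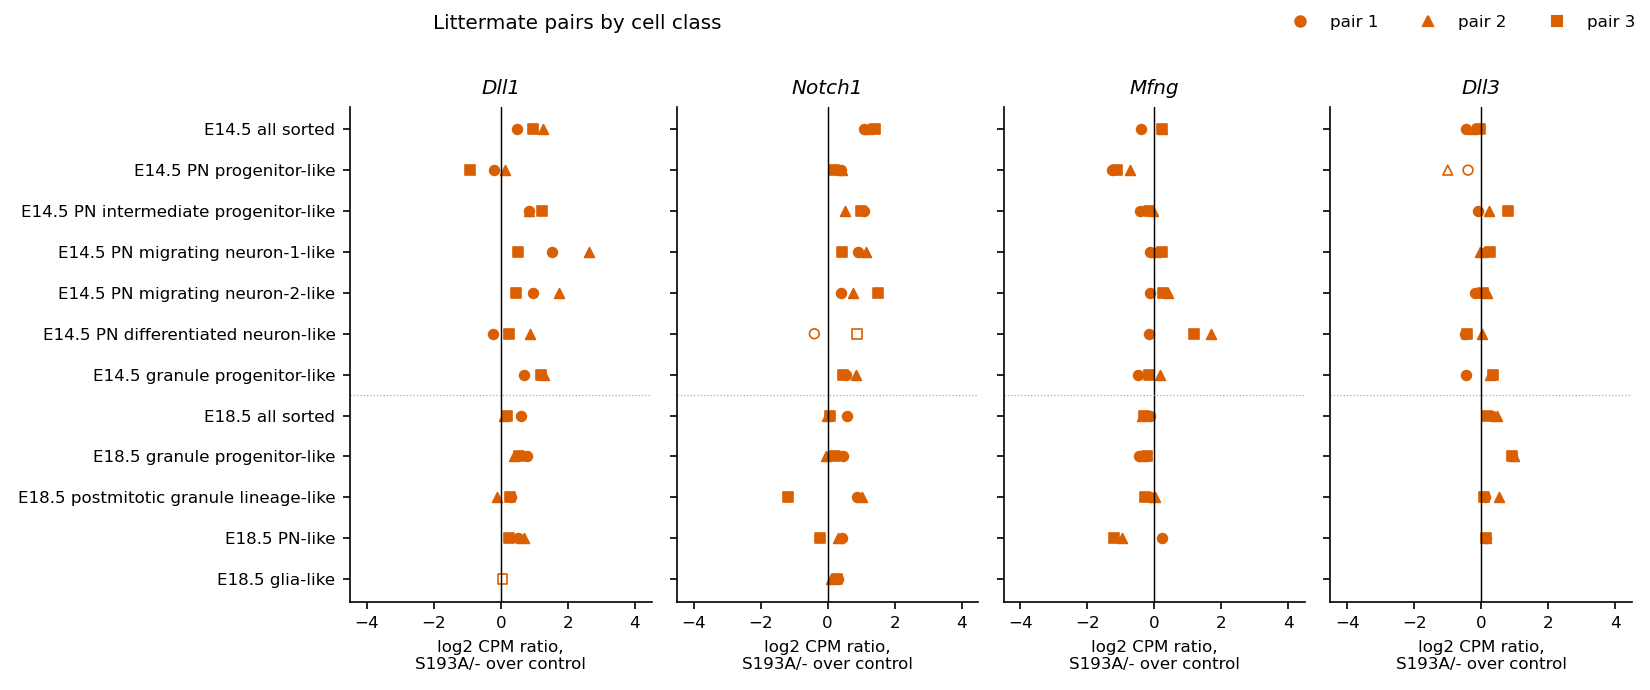
Log2 CPM ratio of *Atoh1* S193A/- over control within each littermate pair (x axis) for *Dll1*, *Notch1*, *Mfng* and *Dll3* in the 12 comparisons tested, with open symbols where a library held under 10 UMIs of the gene and no symbol where the pair had too few UMIs for a ratio. *Dll1* is above 0 in all 3 pairs of 8 comparisons, and *Dll3* in E18.5 granule progenitor-like cells lies at 0.91, 0.97 and 0.91.

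Across the 12 comparisons, of which the sums over all sorted cells hold the cells of the others, *Dll1* was higher in all 3 pairs in 8 and lower in all 3 in 0. Over all genes with more than 3 UMIs in each library, a median of 19.6% were higher in all 3 pairs of a comparison and 12.2% lower, with the most over all sorted E14.5 cells (6123 higher and 3515 lower of 17501 genes). These shares hold within a comparison, and the comparisons of a stage reuse the same 3 pairs. The share of all genes reaching such counts over the 12 comparisons was not taken, so the counts are a description without a background. *Notch1* was higher in all 3 pairs in 7, and *Jag1* and *Lfng* in 6 each, with *Lfng* lower in all 3 in 2. *Mfng* was higher in 0 and lower in 4. *Dll3* was higher in 4 and lower in 1, *Notch2* higher in 2 and lower in 2, *Notch3* higher in 2 and lower in 0, and *Rfng* higher in 1 and lower in 1. *Jag2* had neither pattern. Not every comparison held enough UMIs for 3 ratios: *Rfng* had them in 12, *Dll1*, *Notch1* and *Mfng* in 11, *Dll3*, *Jag1* and *Lfng* in 10, *Notch2* and *Notch3* in 8 and *Jag2* in 7, so neither pattern could be seen in the rest.

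Over all sorted E14.5 cells, 8 members could be tested. *Notch1* was at 19.8, 9.88 and 13.0 CPM in control and 42.4, 22.7 and 34.4 CPM in *Atoh1* S193A/- libraries, with log2 pair ratios of 1.10, 1.20 and 1.41, and *Notch2* averaged 5.07 ± 0.859 and 10.9 ± 2.94 CPM, with pair ratios of 0.94, 1.00 and 1.31 on the log2 scale. Neither gene overlapped between genotypes. With the block, 4 of 8 members rose, *Notch1* (log2 change 1.21, SE 0.07, FDR 0.00382), *Notch2* (1.06, FDR 0.00426), *Dll1* (0.88, FDR 0.0096) and *Jag1* (0.51, FDR 0.0131), and 2 fell, *Dll3* (-0.28, FDR 0.0482) and *Rfng* (-0.27, FDR 0.0212). *Jag2* (-0.18, FDR 0.257) and *Mfng* (-0.01, FDR 0.968) were not called. The log2 ratios of pairs 1, 2 and 3 were 0.47, 1.27 and 0.98 for *Dll1*, 0.31, 0.63 and 0.66 for *Jag1*, -0.46, -0.24 and -0.05 for *Dll3*, and -0.23, -0.30 and -0.20 for *Rfng*. The library ranges of *Dll1*, *Dll3* and *Rfng* overlapped between genotypes, those of *Jag1* did not, and *Notch2* and *Jag1* passed the detection limit in *Atoh1* S193A/- alone, so they could be tested there because they were higher in it. *Dll3* differed least in pair 3, the pair of 1 Cell Ranger version. Of all genes, 17.4% were called in that fit, 10.3% higher and 7.14% lower, 0.00977% without the block and 2.35% by DESeq2, which called *Notch1* (FDR 0.00907) and *Notch2* (FDR 0.00576). Because the called members include some tested only through the group where they were higher, their count is not read against these shares. Progenitor-like PN cells made up 1.26 to 2.22% of the kept cells of control and 4.56 to 7.87% of those of *Atoh1* S193A/- libraries, and dorsal rhombic lip-like cells, in which control *Notch2* reached 39.4 to 46.9 CPM, 3.50 to 4.68% and 8.19 to 10.4%. Whether the changes over all cells come from these shares was not tested.

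At E18.5 the ligand called with the block in granule progenitor-like cells was *Dll3*. *Dll3* was at 10.1, 9.08 and 6.15 CPM in control and at 19.0, 17.8 and 11.6 CPM in *Atoh1* S193A/- libraries, without overlap. With the block it rose by 0.91 (SE 0.07, FDR 0.000381), and *Mfng* fell by 0.37 on the log2 scale (SE 0.06, FDR 0.0119) from 28.4 ± 5.02 to 22.3 ± 2.16 CPM, 2 of 5 members tested where 2.01% of all genes were called (0.893% higher and 1.12% lower). Without the block the log2 changes were 0.92 (SE 0.21, FDR 0.191) and -0.36 (SE 0.12, FDR 0.466), with 0.39% of genes called, and DESeq2 called *Dll3* (FDR 0.000227) with 1.28% of genes. *Notch1* (0.21, FDR 0.351), *Notch2* (-0.30, FDR 0.245) and *Rfng* (-0.01, FDR 0.983) were not called with the block. *Dll1* did not reach the detection limit in these cells, at 4.32 ± 0.471 CPM in control and 6.42 ± 0.992 CPM in *Atoh1* S193A/-, without overlap and untested. *Atoh1* itself was at 58.1 to 59.5 CPM in control and 71.0 to 84.8 CPM in *Atoh1* S193A/- granule progenitor-like cells, and the PN intermediate progenitor list of 6 genes, which contains it, at 435 to 483 and 524 to 598 CPM, and the part of these shifts was not tested. A cluster led by histone genes and *Fgf8* was kept out of this class at E18.5, with 3.82% ± 0.177 of control and 4.20% ± 0.667 of *Atoh1* S193A/- cells, and its *Dll3* was at 9.14 ± 1.18 and 11.5 ± 0.885 CPM.

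In the other 4 E18.5 comparisons no member was called by edgeR with or without the block, or by DESeq2, and 2 of 17 tests had an unadjusted p under 0.05 in edgeR. The shares of all genes called with the block were 0.182% over all sorted cells, 0.479% in postmitotic granule lineage-like, 0.213% in PN-like and 0.0% in glia-like cells, and without it 0.0% in each, and by DESeq2 0.132, 0.0426, 0.101 and 0.0%. In E18.5 PN-like cells *Dll1* was at 10.4, 7.59 and 8.99 CPM in control and at 14.9, 12.2 and 10.6 CPM in *Atoh1* S193A/- libraries, without overlap, and its change of 0.44 with the block (SE 0.13, FDR 0.279) failed the correction. Over all sorted cells *Dll3* was at 15.1 ± 0.996 and 18.8 ± 1.95 CPM (log2 change 0.31 with the block, FDR 0.218), and *Mfng* (-0.29, FDR 0.166), *Notch1* (0.21, FDR 0.836) and *Rfng* (-0.01, FDR 0.989) were not called. In postmitotic granule lineage-like cells the changes with the block were 0.22 for *Dll3* (FDR 0.593), -0.02 for *Rfng* and -0.14 for *Mfng*, and in PN-like cells 0.13 for *Dll3* (FDR 0.560), -0.09 for *Rfng* and 0.11 for *Jag2*. In glia-like cells *Notch1* (0.25), *Notch2* (0.19), *Notch3* (0.06), *Jag1* (0.43), *Lfng* (-0.43) and *Rfng* (-0.30) each had an FDR of 0.997 or more.

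Between stages in control embryos, *Dll1* passed the detection limit at E14.5 alone (26.6% of control granule progenitor-like cells held a UMI there and 6.07% at E18.5), so it could be tested because it was higher at E14.5. In granule progenitor-like cells it fell from 25.4 ± 6.00 CPM at E14.5 to 4.32 ± 0.471 CPM at E18.5 (log2 change -2.59, SE 0.18, FDR 3.48e-05), and *Mfng* fell from 39.0 ± 9.10 to 28.4 ± 5.02 CPM (-0.49, SE 0.17, FDR 0.0442), 2 of 7 members tested where 41.3% of all genes were called (20.4% lower). The *Mfng* call was lost without any 1 of 5 of the 6 control libraries (log2 change between -0.59 and -0.36). *Notch1* in these cells was at 30.9 ± 4.61 and 33.7 ± 1.12 CPM (log2 change 0.06, FDR 0.676), but with a mitochondrial limit of 3% in place of 5% of UMIs per cell the change was -1.05 (FDR 0.00446). *Jag1* (-0.71, FDR 0.0794), which also passed at E14.5 alone, *Notch2* (0.10), *Dll3* (0.27) and *Rfng* (-0.16) were not called. Over all sorted cells *Dll1* (-1.67, FDR 0.00263), *Dll3* (-1.38, FDR 0.000453) and *Rfng* (-0.40, FDR 0.0198) fell, 3 of 6 members tested where 51.5% of all genes were called (25.0% lower). *Dll1* again passed the limit at E14.5 alone (13.0 and 5.80% of cells), as did *Jag2* (-0.60, FDR 0.0834), which was not called, and neither were *Notch1* (0.36, FDR 0.205) and *Mfng* (-0.22, FDR 0.574). DESeq2 called 4 of 6 and, in granule progenitor-like cells, 3 of 7, with 54.5 and 41.7% of all genes. Since *Dll1* was tested only through the stage where it was higher, no count of called members between stages is read against these shares. The 2 stages differ in cell makeup, which cannot be told apart from age over all cells. With Cell Ranger 5.0.1 libraries alone, an alternative chosen after seeing the data that leaves 1 E14.5 control library, assumed to vary like the others, *Dll1* fell in granule progenitor-like cells (-2.25, FDR 0.00167), where *Mfng* was not called (-0.12, FDR 0.629) and 32.2% of all genes were called. Over all sorted cells *Dll1* (-1.27, FDR 0.00994) and *Dll3* (-1.18, FDR 0.00338) fell, *Notch1* rose (0.44, FDR 0.0318) and *Rfng* was not called (-0.29, FDR 0.0770), with 39.4% of all genes called.

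**Figure D3:**
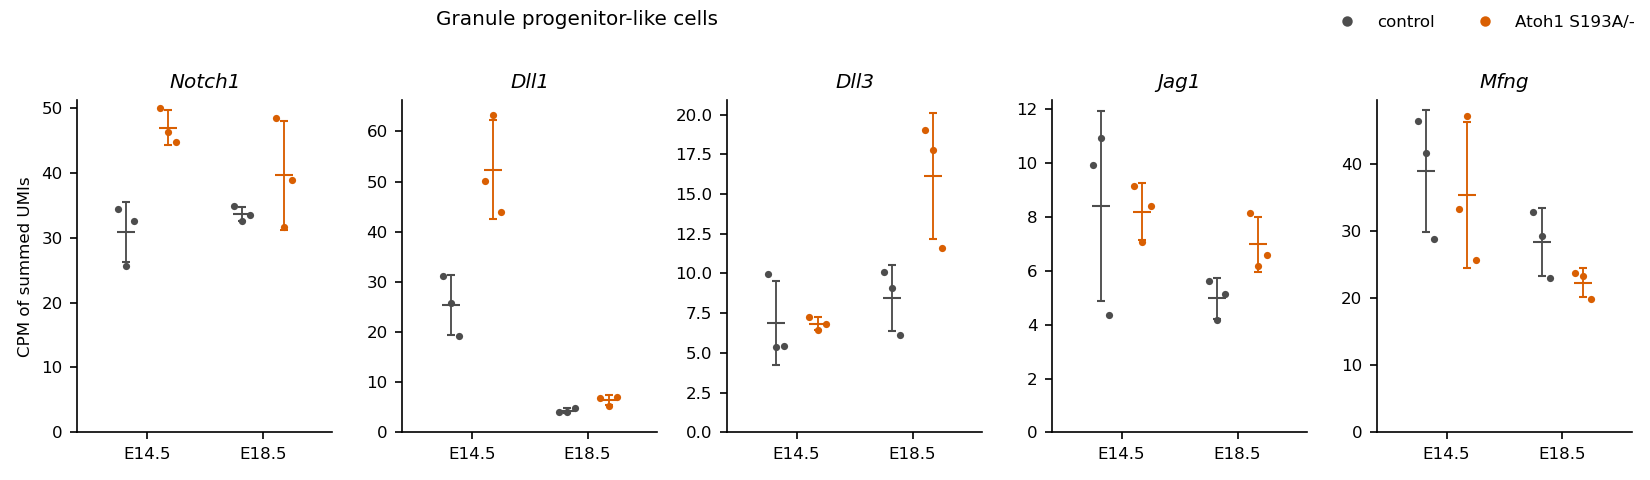
CPM of summed UMIs (linear axis from 0) of 5 members in granule progenitor-like cells by stage and genotype, with 1 point per library and bars for the mean and SD of 3 libraries. *Dll1* goes from 25.4 CPM in control and 52.4 CPM in *Atoh1* S193A/- at E14.5 to 4.32 and 6.42 CPM at E18.5, and *Dll3* separates the genotypes at E18.5, with 8.45 and 16.1 CPM.

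Whether the genotype change depended on stage was tested as an interaction over the 12 embryonic libraries. Cell Ranger 3.1.0 was used for E14.5 control libraries 1 and 2 alone, so the version is mixed with genotype at E14.5 and not at E18.5. Its part in the interaction was not tested. In granule progenitor-like cells 0 of 7 members were called without or with the block, with 1 at an unadjusted p under 0.05 and 0 called by DESeq2, and 0.0, 0.0577 and 0.0769% of all genes were called without the block, with it and by DESeq2. The *Dll3* change was larger at E18.5 than at E14.5 by 0.91 on the log2 scale with the block (SE 0.20, FDR 0.0994), and the *Dll1* change smaller by an interaction of -0.45 (SE 0.17, FDR 0.300), so neither difference between the stages passed, nor did those of *Notch1* (-0.34), *Notch2* (-0.40), *Jag1* (0.29), *Rfng* (0.13) and *Mfng* (-0.15), with FDR values of 0.369 or more. Over all sorted cells 0 of 8 were called without the block (3 at an unadjusted p under 0.05, 0.0% of all genes), 4 of 8 with it (17.6% of genes) and 1 by DESeq2 (0.674% of genes). The 4 called with the block include *Notch2*, which passed the detection limit in E14.5 *Atoh1* S193A/- alone (12.8% of cells, against 5.59 to 6.68% in the other 3 groups), as did *Jag1*, so the count is not read against that share. The 4 not called with the block were *Dll1* (-0.58, FDR 0.0900), *Mfng* (-0.27, FDR 0.245), *Jag2* (0.20, FDR 0.396) and *Jag1* (-0.01, FDR 0.970).

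The 44 other genes of the pathway, from the cleaving proteases to the *Hes* and *Hey* effectors, were read in the same fits. Between 31 and 37 of them were tested per genotype comparison, and without the block 0 were called in any of the 12. With it, *Hes5*, an effector that the cleaved receptor switches on, rose in progenitor-like (log2 change 0.33, FDR 0.0453), intermediate progenitor-like (0.71, FDR 0.00389), migrating neuron-1-like (0.69, FDR 0.00059) and E14.5 granule progenitor-like cells (1.04, FDR 0.0393). In migrating neuron-1-like cells *Hey1* (0.47, FDR 0.00657) and *Hes6* (0.33, FDR 0.0202) rose too, while in progenitor-like cells *Hes6*, which favors neuronal differentiation, fell by 0.43 (FDR 0.0107). These made 2 of 35, 1 of 34, 3 of 35 and 1 of 33 genes tested in the 4 classes, where 0.851, 1.09, 1.42 and 1.01% of all genes were called. In E18.5 granule progenitor-like cells *Hes1* fell by 0.54 (FDR 0.00335), as 1 of 32 where 2.01% of all genes were called. Over all sorted E14.5 cells, where 17.4% of all genes were called, 8 of 37 rose, led by *Hes1* (1.34, FDR 0.00516), *Maml2*, which encodes a coactivator (0.56, FDR 0.00785), and *Hes5* (1.10, FDR 0.00807), and 2 fell, among them *Dner* (-0.32, FDR 0.00877), with *Adam17*, which encodes a receptor-cleaving protease (0.45, FDR 0.0125), and *Nrarp*, a feedback regulator (0.39, FDR 0.0131), also higher. The part of the Cell Ranger version in these E14.5 pathway calls was not tested. Which pathway genes passed the detection limit in *Atoh1* S193A/- alone is not given here, so their counts are not read against the shares of all genes. The median log2 change of the tested pathway genes lay between -0.03 and 0.06 in the 12 genotype comparisons, with the median over all genes between -0.01 and 0.01.

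Outside the PN and granule lineages, levels were described in glia-like and unipolar brush cell-like cells, and in glial and vascular classes at P5 below. *Notch1* was high in glia-like cells, at 141 ± 38.3 CPM at E14.5 and 164 ± 17.2 CPM at E18.5, the former overlapping with PN progenitor-like cells, and there *Notch3* was at 42.3 ± 7.94 and 50.1 ± 7.99 CPM. E14.5 glia-like cells carried *Dll3* at 71.7, 67.0 and 48.1 CPM in control and 35.8, 31.7 and 37.1 CPM in *Atoh1* S193A/-, without overlap and in a class for which no genotype test was planned. Doublet scores of glia-like cells were high, with library medians between the 76.8 and 84.8 percentile of Scrublet scores at E14.5 (76.8 to 84.7 in control and 79.1 to 84.8 in *Atoh1* S193A/-) and between the 88.7 and 91.4 percentile at E18.5, before the highest 7.5% were removed, and their part in the *Dll3* levels was not tested. In E18.5 unipolar brush cell-like cells *Mfng* was at 102 ± 10.0 CPM in control and 93.0 ± 11.9 CPM in *Atoh1* S193A/-, against the 18.2 ± 2.69 CPM of control postmitotic granule lineage-like cells.

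At P5, where both libraries are control and no test was planned, PN neuron-like cells (7430 of 14004) carried few members. *Dll3* was at 51.0 and 45.7 CPM in the 2 libraries, *Rfng* at 30.7 and 30.9 CPM, *Jag2* at 11.3 and 10.5 CPM and *Dll1* at 9.54 and 7.70 CPM. The receptors and *Jag1*, *Lfng* and *Mfng* were each at or below 1.42 CPM in both. Astrocyte-like cells carried *Notch1* at 160.3 and 150.02 CPM, *Notch3* at 109 and 106 CPM and *Lfng* at 68.9 and 56.9 CPM. Oligodendrocyte lineage-like cells carried *Notch1* at 49.7 and 36.6 CPM with *Dll3* at 30.9 and 28.7 CPM, and within them 1 cluster reached 99.6 ± 15.8 CPM of *Notch1*, 104 ± 12.7 CPM of *Dll3* and 38.7 ± 1.64 CPM of *Dll1*. In the 1 library with enough of them, mural-like cells (30 cells) had *Notch3* at 232 CPM and endothelial-like cells (48 cells) had *Notch1* at 140 CPM, *Mfng* at 69.9 CPM and *Jag2* at 57.4 CPM. These vascular and glial classes were in the TdTom+ gate, and their place in the *Atoh1* lineage was not tested.

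**Figure D4:**
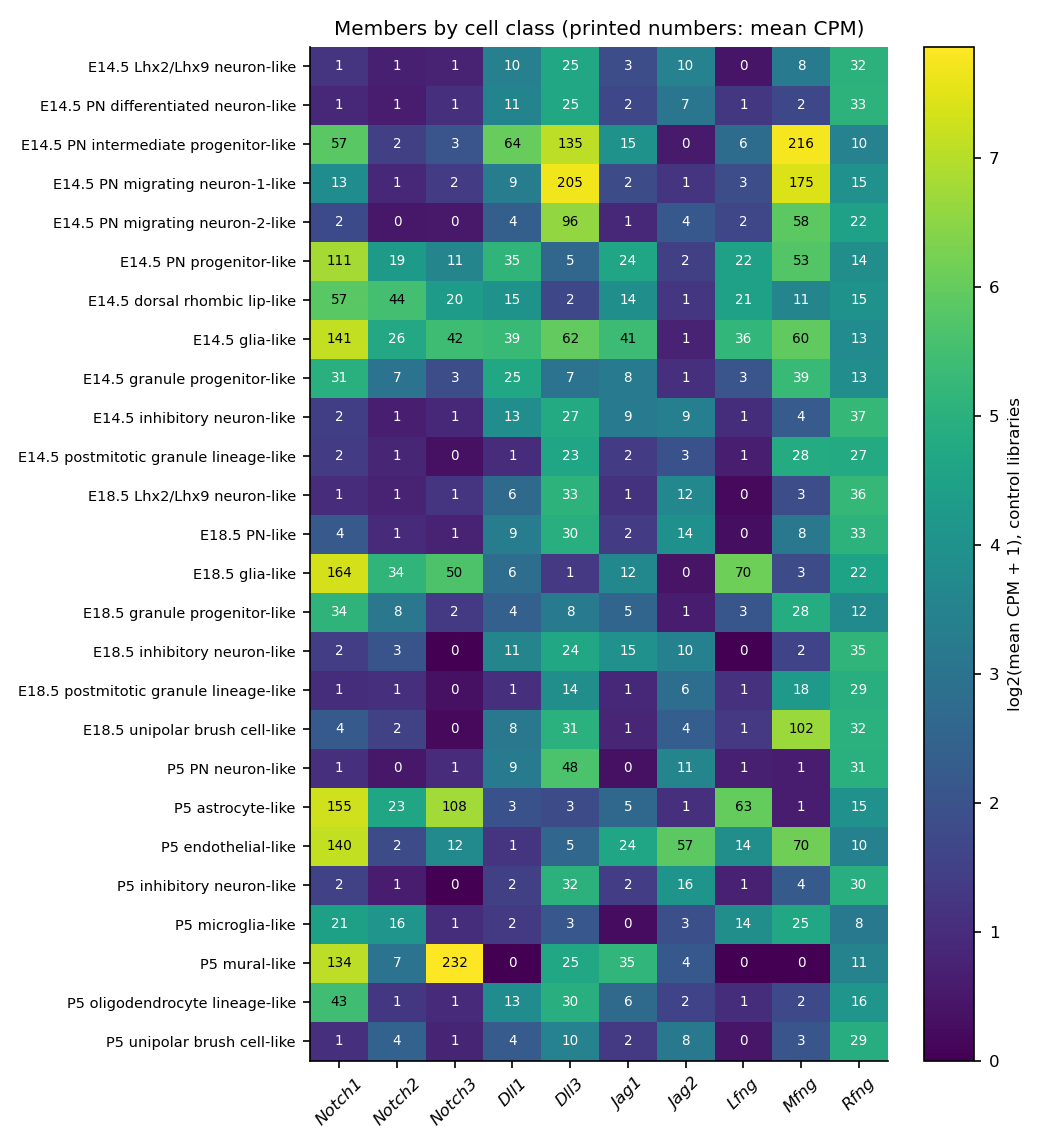
Mean CPM of the 10 members in the control libraries of each named class at E14.5, E18.5 and P5, colored by log2(mean CPM + 1) with the mean CPM printed in each field. *Notch1* is at 111 CPM in PN progenitor-like, 164 CPM in E18.5 glia-like and 155 CPM in P5 astrocyte-like cells, *Notch3* at 232 CPM in P5 mural-like cells, and *Rfng* stays between 7.98 and 36.9 CPM in all classes shown.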

How the data were processed

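The authors aligned 10x 3′ v3.1 reads of TdTom+ sorted cells to mm10 with the WPRE sequence of the reporter and deposited UMI counts per gene and barcode for 14 libraries, made with Cell Ranger 3.1.0 (2 libraries) or 5.0.1 (12 libraries) per the submitters' processing notes. Barcodes with at least 1000 genes and at most 5% mitochondrial UMIs were kept, and the 7.5% with the highest Scrublet scores in each library were removed as doublets. Cells were clustered per stage with scanpy 1.11.5 (2000 variable genes without Notch pathway genes, 30 principal components, 15 neighbors, Leiden resolution 1), and clusters were named from marker lists. Cluster names rebuilt here may differ from those of the study. The raw counts were summed per library and class with at least 10 cells and tested with edgeR 4.0.16 (TMM, quasi-likelihood, Benjamini-Hochberg adjustment over every gene detected in 10% or more of any group's cells), with DESeq2 1.42.0 (DESeq2's Wald test) as an alternative. Interactions were called on an FDR under 0.05 alone. The unblocked edgeR test was tried on simulated counts of 3 E14.5 comparisons, where the share of false calls lay above the FDR limit in each, most in PN progenitor-like and intermediate progenitor-like cells, and the block was not simulated.

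Per the labels, littermate controls were taken for the *Atoh1* S193A/- embryos and both genotypes share replicate numbers, and same-numbered embryos were treated as littermates. Deviations from the group means correlated within same-numbered pairs (r = 0.72 to 0.85 at E14.5 and 0.70 to 0.85 at E18.5, across genes), so same-numbered libraries varied alike. In other pairs r lay between -0.78 and 0.23, which is partly built in, because deviations cancel within a group. These values cannot tell a shared litter from shared handling. The comparisons used 1 library per embryo as the replicate, and the 2 P5 libraries, pooled pups, were only described. Depth was 108239001 to 236964126 UMIs per library, and counting error alone limits genes with few UMIs.

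All 10 members are named in every comparison in which they could be tested. Of the 44 other pathway genes, those called between genotypes are named, at most the 6 with the lowest FDR per comparison. Nearest genes are the 3 with the highest Pearson r among genes of at least 20 CPM in some cluster. The members and lists were chosen with earlier results of these data known. The counting is by strand, but *Notch1*, *Notch2* and *Jag2* overlap small genes on their own strand (*Mir6996*, *Gm42819* and *Gm42820*, *Mir6941*), so reads there are uncertain. Alternatives were other size factors, other filters on genes and cells, the littermate block, 1 Cell Ranger version (for the stage comparison, chosen after seeing the data) and leaving out each library.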

Additional observations from a re-analysis of the deposited data

Results flagged for a closer look

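Over all sorted cells, the genotype change of 4 members differed between E18.5 and E14.5 in the interaction test with the littermate block, where 17.6% of all genes were called. The change was lower at E18.5 for *Notch1* (-0.9914 on the log2 scale, edgeR FDR 0.0102) and *Notch2* (-1.226, FDR 0.00564) and higher for *Dll3* (0.5947, FDR 0.0156) and *Rfng* (0.2722, FDR 0.0383). *Notch2* passed the detection limit in E14.5 *Atoh1* S193A/- alone (12.8% of cells, against 5.62% in E14.5 control and 6.68 and 5.59% in E18.5 control and *Atoh1* S193A/-), so its being tested favored this direction and the value is a description. Without the block 0 of 8 members were called by edgeR, 3 had an unadjusted p under 0.05, and DESeq2 called *Dll3* (FDR 0.0449). PN progenitor-like cells made up 1.26 to 2.22% of control and 4.56 to 7.87% of *Atoh1* S193A/- cells at E14.5, and their part in the interaction was not tested. Cell Ranger 3.1.0 was used for E14.5 control libraries 1 and 2 alone, so the version is mixed with genotype at E14.5 and not at E18.5. The E14.5 *Dll3* difference was smallest in pair 3, the pair of 1 version, and the part of the version in the interaction was not tested.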

How the results depend on the processing

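The number of members called depended on the test more than on scaling. Called members over all sorted E14.5 cells went from 0 to 2 with DESeq2 and 6 with the littermate block. Both include *Notch2*, and the latter *Jag1*, which passed the detection limit in *Atoh1* S193A/- alone. In PN progenitor-like cells they went from 0 to 1 without the filter on low genes (0.253% of all genes called) and 1 with the block. In intermediate progenitor-like cells they went from 0 to 2 with DESeq2, 2 without the filter (0.499%) and 2 with the block, and ranged from 0 to 2 when each library was left out (0.0 to 0.45%). In migrating neuron-1-like cells each of these 3 alternatives gave 1 (0.835% without the filter). In E14.5 granule progenitor-like cells and again at E18.5, DESeq2 gave 1, no filter 1 (0.398 and 0.677%) and the block 2. For the stage comparison over all sorted cells (3 called), no filter gave 5 (31.7% of all genes called) and edgeR's filterByExpr 5 (45.5%), with 2 to 5 when each library was left out (39.2 to 51.7%). In granule progenitor-like cells (2 called), no filter gave 4 (24.4%), the 3% mitochondrial limit 4 (25.3%), leaving out a library 1 to 3 (28.7 to 41.8%) and Cell Ranger 5.0.1 libraries alone 1 (32.2%, chosen after seeing the data). The members called in both of these stage comparisons include *Dll1*, which passed the detection limit at E14.5 alone. The stage interaction over all sorted cells went from 0 to 1 with DESeq2 and 4 with the block. The state interaction went from 0 to 2 with DESeq2, 2 without the filter (0.387%), 1 with 15% of cells removed as doublets (0.0769%) and 0 to 4 when each library was left out (0.00954 to 0.935%). The shares for DESeq2 and the block stand beside each result. The block changed no other call.

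Of the log2 changes of members, 1374 kept their direction and their side of the threshold under an alternative, 52 passed it only there and 10 lost it. The 3% mitochondrial limit turned *Notch1* between stages in granule progenitor-like cells from 0.06 to -1.05, and the cause was not tested. That limit gave 0.56 for *Notch1* between genotypes in intermediate progenitor-like cells (0.88 at 5%). With Cell Ranger 5.0.1 libraries alone, which leave 1 E14.5 control library, the E14.5 genotypes were compared without the block, and that library was assumed to vary like the others. The test without the block called 0 members with all libraries too, so calls were not read from that alternative. The test in glia-like cells with 15% of cells removed could not be fitted. For the test with the littermate block, the smallest change that 3 libraries per genotype can show was not tested. Sums with few UMIs of a gene are limited by counting error.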
